A study of Homo sapiens with 6 samples.

Results

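Genes of the cell division cycle were followed for changes in mRNA stability and RNA level after depletion of MOV10, an RNA helicase. They were taken by symbol from the table of 7682 genes: kinesins (KIF), centromere proteins (CENP), cyclins (CCNA to CCNL), cyclin-dependent kinases and their partners (CDK), CDC genes, BUB, PLK and AURK kinases, condensin (NCAP), SMC and MCM genes. CCND1 and CDC42 were left out by that rule. It selected 95 genes, and 86 of them had a mean total RNA value of at least 5 in both conditions, as did 6064 of the 7682 genes. Origin recognition complex genes, NDC80, NUF2, CDK1, CDC20, CDC25A and MCM2 were not analysed here. A symbol rule also takes in genes with other work in the cell, such as CDC40 in splicing, MCM3AP in mRNA export and KIF1A in axonal transport, so the 95 were sorted into 13 groups by role, 1 of them for partners and genes of other function.

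The cells were HEK293, a human embryonic kidney line, and were either mock transfected or transfected with MOV10 siRNA. In both arms RNA made during 60 min was tagged with 700 µM 4-thiouridine (4sU), a uridine analogue. Biotinylated 4sU RNA was then held on streptavidin beads, which gave a labelled and a flow-through (unlabelled) fraction beside total RNA, and poly(A)+ libraries of all 3 were read for 100 cycles. The control arm is called mock, with no control siRNA named, and the siRNA sequence and the time after transfection are not given in the sources used here.

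Cyclins activate cyclin-dependent kinases (CDKs), and the kinase that is active at a given time sets the phase of the cycle. CDC6 and the MCM proteins license and open replication origins before S phase. Condensin and the SMC proteins shape and hold sister chromatids, and centromere proteins, mitotic kinesins and the Aurora, Polo-like and BUB kinases attach them to the spindle and time their separation. Many of these mRNAs are made and removed within one cycle, so their half-lives bear on how fast their levels can move.

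GEO lists a single sample for each of the 6 groups, while the table carries 2 replicate columns for each. Nothing says that the columns came from separate cultures, so p-values measure only the spread between them, which may be technical. The authors normalised the expression signal and its unit is not named, so depth is unknown, and levels are not compared between genes. MOV10 total RNA was 13.1 and 14.6 in mock against 3.53 and 3.64 with siRNA. Of 7 HEK293 markers, NEFL, INA and VIM were listed, and of 14 markers of blood, endothelium and fibroblasts only HBA1 was, at 14.5 and 18.5 in mock against 18.5 and 19.1 with siRNA. Its part in the results was not tested. Deposited median half-lives per column were 742 and 810 min in mock against 764 and 1030 min with siRNA. Medians recomputed from the fractions were lower with siRNA instead, 558 and 508 min against 624 and 678 min for mock. The direction of the shift in the median half-life is therefore not settled. The columns differed, so each was centred on its median gene. This removed a shift of the median gene of 0.20 in half-life and 0.14 in labelled RNA, against -0.01 in total and 0.02 in flow-through RNA. All log2 changes are siRNA minus mock and relative to the median gene. Rose and fell are used for a limma adjusted p (Benjamini-Hochberg over 6064 genes) under 0.05. The GC content of the transcript moved with these changes over 5991 genes, with a Spearman rho of -0.37 for half-life, -0.34 for total, -0.10 for labelled and -0.39 for flow-through RNA. The cell cycle genes had a median GC content of 45.2%, against 48% for all genes, and values centred within 10 GC bins (GC centring) are given where the call of a gene described here changed.

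In mock cells the half-lives of the 86 genes spanned 64 to 3028 min, with a median of 792 min against 777 min for all genes. In the shortest 25% of all genes, under 451 min, lay 18 of the 86 (20.9%), and 21 (24.4%) lay in the longest, above 1208 min. Both shares are near 25%, the share that all genes have at each end, while the roles were placed at different ends. Half-lives are the authors' values and are given per column, with no SD.

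Short-lived mRNAs were frequent among the cyclins that drive the cycle. Of 8 such cyclins, 5 lay in the shortest 25% and 0 in the longest, and their median was 385 min. CCNE1, the cyclin that activates CDK2 at the entry to S phase, had the shortest half-life among them, 99 and 118 min in the mock columns. CCND2 (188 and 217 min) and CCNF (190 and 218 min) followed, and these 2 neighbours did not differ beyond the spread of their columns. The mitotic cyclins differed from each other, with CCNB1 at 294 and 354 min, CCNA2 at 443 and 450 min and CCNB2 at 669 and 805 min.

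Among the CDKs the shortest was CDK9, the kinase that releases paused RNA polymerase, at 132 and 131 min, and the longest was CDK4 at 944 and 1087 min. CDK5R1, which activates CDK5 in neurons, had the shortest half-life of all 86, 61 and 66 min. MCM9 (154 and 163 min), a relative of the replicative helicase subunits, stood far below MCM4 (1306 and 1368 min), a subunit itself. In the centromere group CENPB, which binds alphoid repeats, was shortest at 185 and 205 min, ahead of CENPA (240 and 244 min), the centromeric histone, and CENPQ (270 and 283 min). CENPP was longest of that group at 2417 and 1896 min. PLK4, the kinase that starts centriole duplication, was at 282 and 307 min, and CDK5RAP2, a protein of the pericentriolar material, at 1726 and 1932 min.

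Condensin and SMC mRNAs were at the stable end, with a median of 1142 min and 0 of 10 genes in the shortest 25% and 5 in the longest. NCAPG2, a condensin II subunit, had the longest half-life of the 86, 2884 and 3172 min. SMC1A, a core cohesin subunit, was at 2403 and 2936 min, while SMC3, its partner in the same ring, was at 717 and 776 min. The 5 mitotic kinesins lay close together, from KIF2A (600 and 624 min) to KIF4A (965 and 1117 min). AURKA (429 and 518 min) and AURKB (453 and 507 min) overlapped, as did BUB1 (1279 and 1471 min) and BUB1B (1311 and 1514 min).

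**Figure D1:**
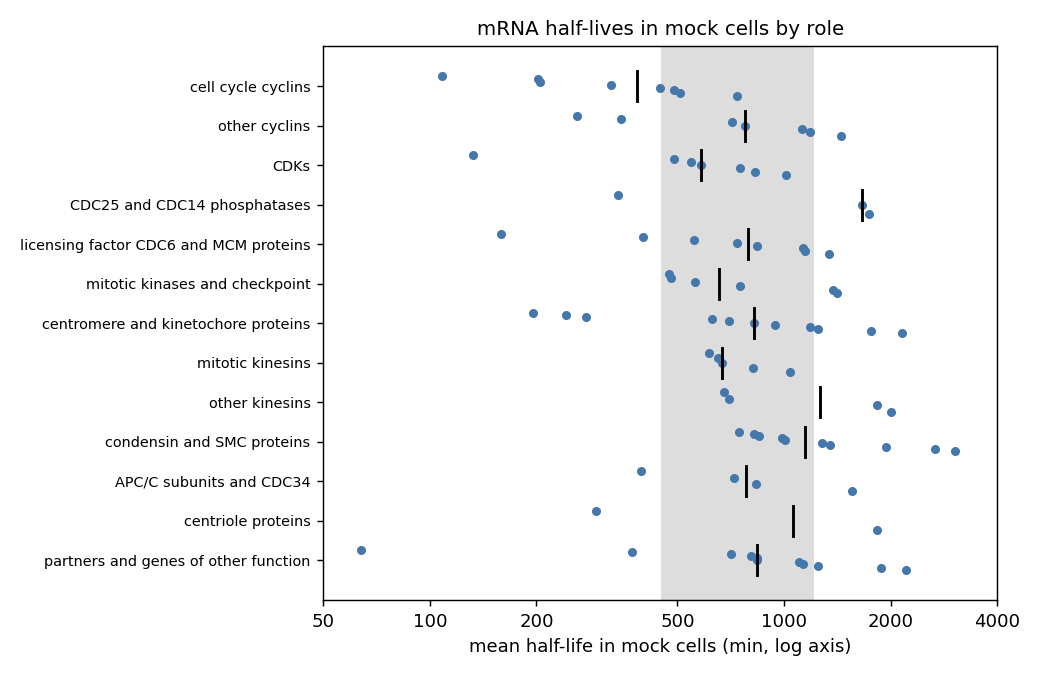
Mean half-life of each gene in mock cells (minutes, log axis), 1 point per gene past the expression minimum, by role; black bars are group medians and the grey band runs from the lower to the upper quartile of all genes, 451 to 1208 min. Cell cycle cyclins sit mostly left of the band (median 385 min) and no condensin or SMC gene does (median 1142 min).

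After MOV10 depletion the half-life rose for 3 of the 86 (3.49%; 1.88% of all genes rose) and fell for 8 (9.3%; 4.27% of all genes fell), by the limma test. The rises were those of CCNE1, CCNE2 and CDK10. The falls were those of CCNJ, CENPF, KIF3B, CCND3, CCNG2, CCNC, CDK5RAP1 and NCAPD3. Of the 11 genes 6 were cyclins, and they moved both ways. Among the 8 tested cyclins that drive the cycle 2 rose and 1 fell, and among the 7 other cyclins 3 fell. The median change of the 86 was 0.04, against 0.00 for all genes, within a range of -1.12 to 0.70, and 25 genes had an unadjusted p under 0.05. The siRNA columns lay wholly above the mock columns, after centring, for 32 of the 86 genes (28.5% of all genes did so) and wholly below for 24 (27.3% of all genes). The share below is near that of all genes, and the share above is higher.

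Both E-type cyclins had longer half-lives. CCNE1 was at 99 and 118 min in mock against 187 and 214 min with siRNA, a log2 change of 0.70 (SE 0.12, limma adjusted p = 0.0232). CCNE2, the second cyclin of CDK2 at the same step, was at 482 and 496 min in mock against 726 and 841 min with siRNA, a change of 0.48 (SE 0.10, limma adjusted p = 0.0467). In both genes the higher mock column lay under the lower siRNA column. CCND3, a D-type cyclin that activates CDK4 and CDK6 in G1, moved the other way, from 492 and 521 min to 334 and 424 min (-0.62, SE 0.09, limma adjusted p = 0.0148). The remaining 5 cyclins of this group, CCNA2, CCNB1, CCNB2, CCND2 and CCNF, had changes between -0.07 and 0.18 and did not pass. With GC centring, CCNE2 no longer passed (0.39, limma adjusted p = 0.0598), while CCNE1 did (0.72, limma adjusted p = 0.0276).

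Of the 7 cyclins with roles outside the core cycle, 3 had shorter half-lives and 0 had longer ones. CCNJ, a little-studied cyclin, fell furthest of all 86, from 332 and 360 min to 154 and 213 min (-1.12, SE 0.09, limma adjusted p = 0.00364). CCNG2, an atypical cyclin tied to cell cycle arrest, fell from 254 and 265 min to 190 and 201 min (-0.60, SE 0.13, limma adjusted p = 0.0442). CCNC, which pairs with CDK8 in the Mediator kinase module, fell from 1438 and 1456 min to 1052 and 1178 min (-0.57, SE 0.12, limma adjusted p = 0.0403). No siRNA column of these 3 genes reached a mock column. CCNG1 (-0.27, limma adjusted p = 0.158) and CCNL2 (0.25, limma adjusted p = 0.138), a cyclin of splicing factor compartments, did not pass.

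CDK10, a kinase partnered by cyclin M, was the 1 CDK of 7 to pass, from 742 and 764 min to 1118 and 1601 min (0.63, SE 0.09, limma adjusted p = 0.0162). CDK7, the CDK-activating kinase, had a change of 0.39 (limma adjusted p = 0.0856) and CDK8 one of 0.37 (limma adjusted p = 0.0741), so neither passed. CDK5RAP1, a mitochondrial tRNA-modifying enzyme despite its name, fell from 2056 and 2370 min to 1497 and 2067 min (-0.52, SE 0.10, limma adjusted p = 0.0324). Here the uncentred columns overlapped, since the second siRNA column had the higher median half-life, 1030 min. The same held for NCAPD3, a condensin II subunit, at 1899 and 1976 min in mock against 1384 and 1900 min with siRNA (-0.45, SE 0.10, limma adjusted p = 0.0436).

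CENPF, a large protein of the outer kinetochore that is made in G2 and lost after mitosis, was the 1 gene of 11 in the centromere group to pass. Half-lives of CENPF were 665 and 731 min in mock against 378 and 385 min with siRNA (-1.07, SE 0.14, limma adjusted p = 0.011). CENPQ, an inner kinetochore protein, was at 270 and 283 min in mock against 391 and 459 min with siRNA, which did not pass (0.42, limma adjusted p = 0.0609). With recomputed half-lives CENPQ passed as a rise (0.40, limma adjusted p = 0.0434). KIF3B, a motor subunit of kinesin-2 that carries cargo in cilia, fell from 621 and 773 min to 420 and 600 min (-0.66, SE 0.10, limma adjusted p = 0.0185). In both called genes every siRNA column was below every mock column. No gene of the MCM and CDC6 group (8 tested), the mitotic kinases and checkpoint proteins (6), the mitotic kinesins (5), the CDC25 and CDC14 phosphatases (3), the anaphase-promoting complex with CDC34 (4) or the centriole group (2) passed in half-life.

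**Figure D2:**
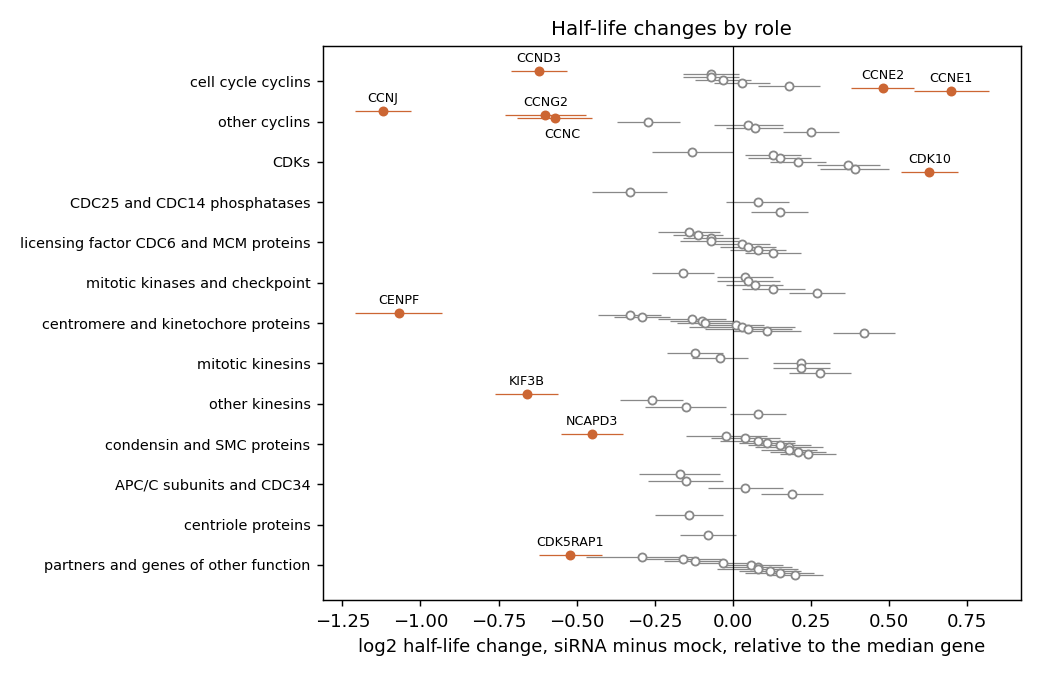
Log2 half-life change of each gene (siRNA minus mock, relative to the median gene) by role, with the standard error of the limma fit; filled orange points passed the test and are named, open grey points did not. The 11 named genes run from CCNJ at -1.12 to CCNE1 at 0.70, and the MCM and CDC6 genes lie between -0.14 and 0.13.

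These calls rested on all 4 half-life columns. CCNJ alone passed without each of the 4 columns in turn (log2 -1.14 to -1.10, limma adjusted p 0.0122 to 0.0256). Without the first mock column it was the 1 gene of the 11 left, and without the second mock column CENPF stood beside it. Without the first siRNA column 6 of the 11 passed (CDK10, CCND3, CCNC, CCNJ, CCNG2 and CENPF), and without the second 7 did (CDK10, CCND3, CCNE1, CCNE2, CCNJ, KIF3B and CENPF). All 11 kept their direction in each of these 4 fits. With no centring, 0 of the 86 genes passed in either direction, as against 2 rises and 5 falls among all 6064 genes, and the median change of the 86 was 0.24.

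**Figure D3:**
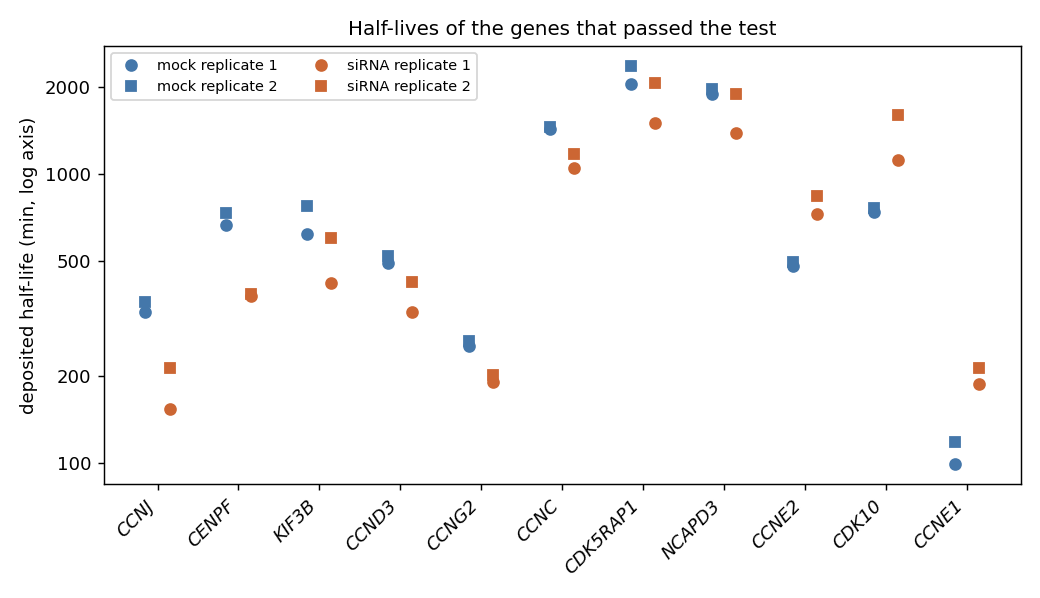
Deposited half-lives (minutes, log axis) of the 11 genes that passed the limma test, 1 point for each replicate column; blue is mock, orange is siRNA. CCNE1 moved from 99 and 118 min to 187 and 214 min, and CENPF from 665 and 731 min to 378 and 385 min; the columns of CDK5RAP1 and NCAPD3 overlap before centring.

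Annotated 3' UTRs of the 86 genes were searched on the sense strand for the 7-base sequence TACTGCA, which an earlier search of these same half-life changes had picked out, so the counts only describe these genes. The longest 3' UTR of each gene was used (GENCODE release 29). The sequence was in 7 of the 86 (8.14%), against 690 of 5991 genes (11.5%). Among the 7 genes with it, 2 had a half-life that fell, CENPF and KIF3B, and among the 79 without it 6 fell. Over all genes, 100 of the 690 (14.5%) fell, against 158 of 5301 without it (2.98%). UTRs that held it were longer, with a median of 3640 bases in the 7 genes against 1007 bases in the 79, and the part of length was not tested. The windows, 5′ to 3′ in the sense of the transcript, show the match in capitals for the genes that fell and for CCNB1, which did not pass (-0.07).
CENPF: ccattcctcTACTGCAatgtaaata
KIF3B: agataacacTACTGCAttccagcct
CCNB1: cataggacaTACTGCAtgtaagcca
On GRCh38, each within the annotated 3' UTR, the matches lie at chr1:214664008-214664014 (plus strand) in CENPF, chr20:32333592-32333598 (plus) in KIF3B and chr5:69177977-69177983 (plus) in CCNB1. None of the other tested genes with the sequence passed in half-life.

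Total RNA rose for 21 of the 86 genes (24.4%; 12.9% of all genes rose) and fell for 16 (18.6%; 14.3% of all genes fell), with a median change of 0.09 against 0.01 for all genes. Labelled RNA, made within the labelling time, rose for 19 (22.1%; 9.88% of all genes) and fell for 5 (5.81%; 11.5% of all genes), with a median of 0.10 against 0.00. Flow-through RNA rose for 44 (51.2%; 31.7% of all genes) and fell for 19 (22.1%; 26.8% of all genes), with a median of 0.13 against 0.03. The siRNA columns lay wholly above the mock columns for 42, 45 and 53 of the 86 genes in the 3 fractions (34.2%, 31.8% and 44.5% of all genes) and wholly below for 22, 14 and 22 (30.2%, 30.5% and 36.7% of all genes). These are bulk samples of mixed cells, so fewer cells in a phase and less RNA per cell cannot be told apart. With no centring, 11 rose and 15 fell in total RNA, where 451 and 686 of the 6064 genes did. In labelled RNA 40 then rose and 3 fell, and the counts over all genes were 1641 and 333. Flow-through counts were then 39 rises and 19 falls, against 1762 and 1706 over all genes. With GC centring total RNA gave 19 rises and 18 falls (773 and 891 of 5991 genes), labelled RNA 24 and 6 (712 and 795), and flow-through RNA 38 and 19 (1603 and 1431).

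The fractions overlapped in which genes they called. Of the 44 genes that rose in flow-through RNA, 20 also rose in total and 19 in labelled RNA, and 9 rose in all 3. Of the 19 that fell in flow-through RNA, 14 fell in total and 5 in labelled RNA, and 4 fell in all 3. All 8 genes with shorter half-lives also fell in total and flow-through RNA, and 3 of them in labelled RNA. The 3 genes with longer half-lives all rose in flow-through RNA, 2 rose in total RNA and 0 rose in labelled RNA. Half-lives are computed from these fractions, so this is not independent evidence. Labelled and flow-through RNA were separated from total RNA, and each column was centred on its own median gene. A rise or fall in both without one in total RNA therefore cannot be read as a change in the level of the mRNA.

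Among the cyclins that drive the cycle, total RNA rose for 5 of 8 and fell for 1. CCNE2 total RNA was 22.8 and 19.8 in mock against 29.8 and 31.6 with siRNA (log2 0.53, SE 0.09, limma adjusted p = 0.00081), the largest rise in total RNA of the 86. CCNE1 total RNA was 22.8 and 22.0 in mock against 30.3 and 30.4 with siRNA (0.44, SE 0.08, limma adjusted p = 0.000766). Labelled RNA of the 2 genes had changes of -0.02 and -0.07 (limma adjusted p = 0.883 and 0.565), with overlapping columns. CCND3 fell in all 3 fractions, in total RNA from 19.7 and 26.0 to 14.1 and 13.6 (-0.65, SE 0.09, limma adjusted p = 0.000226) and in flow-through RNA from 32.1 and 30.9 to 15.5 and 15.9 (-0.95, limma adjusted p = 0.000135). CCNB2 rose in all 3, in flow-through RNA from 67.6 and 66.6 to 88.6 and 91.8 (0.44, limma adjusted p = 0.000435), as did CCNF, an F-box cyclin. The total RNA call of CCNF (0.25) was lost when any 1 column was left out, with changes of 0.23 to 0.26. Its labelled call (0.26) held only without the second siRNA column, and these changes were 0.21 to 0.31. CCNA2 rose in total RNA (43.3 and 43.1 to 49.8 and 49.2, 0.21, limma adjusted p = 0.0352), and CCNB1, whose total RNA was 42.3 and 43.6 in mock against 39.1 and 38.5 with siRNA, did not pass in any fraction. With GC centring 3 of the 8 rose in total RNA and 2 fell. CCNA2 (0.15, limma adjusted p = 0.0558) and CCNB2 (0.15, limma adjusted p = 0.106) no longer passed there, while CCNB1 passed as a fall (-0.21, limma adjusted p = 0.0216). CCNA2 was also lost in flow-through RNA, CCND3 no longer passed in labelled RNA (-0.24, limma adjusted p = 0.0526), and CCND2 passed as a fall in labelled and flow-through RNA. The 5 rises in total RNA became 2 with no centring, and 2 without the second mock, the first siRNA or the second siRNA column, each time with CCND3 as the 1 fall.

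Among the other cyclins, CCNJ had the largest fall of the 86 in total and in flow-through RNA. CCNJ total RNA was 13.9 and 14.9 in mock against 5.62 and 6.24 with siRNA, a 2.42-fold lower level (-1.13, SE 0.09, limma adjusted p = 1.15e-06). Its flow-through RNA was 16.6 and 15.7 in mock against 4.53 and 4.84 with siRNA, 3.45-fold lower, and its labelled RNA fell from 19.1 and 17.4 to 12.8 and 13.4 (-0.58, SE 0.08, limma adjusted p = 0.000923). So CCNJ was lower in every fraction and its columns never overlapped. CCNC total RNA fell 1.79-fold, from 50.2 and 48.2 to 27.4 and 27.5 (-0.80, SE 0.07, limma adjusted p = 5.05e-06), and its labelled RNA fell by 0.36 (limma adjusted p = 0.0197). CCNG2 and CCNG1, a p53 target, fell in total and flow-through RNA, and CCNI and CCNK, the cyclin of the transcription kinases CDK12 and CDK13, passed in no fraction. CCNL2 went the other way and rose in total (0.22, limma adjusted p = 0.0272) and flow-through RNA (0.12, limma adjusted p = 0.0323). Without 1 of the columns these changes of CCNL2 were 0.17 to 0.27 and 0.11 to 0.14. With GC centring CCNI passed as a fall in flow-through RNA.

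Of the 7 CDKs, 5 rose in flow-through RNA and CDK9 fell, from 12.8 and 11.7 to 9.08 and 10.3 (-0.30, limma adjusted p = 0.0192). CDK8 flow-through RNA was 13.2 and 13.4 in mock against 21.7 and 20.2 with siRNA (0.64, SE 0.06, limma adjusted p = 0.00057), and it rose in total and labelled RNA too. The labelled call of CDK8 was lost with GC centring (0.22, limma adjusted p = 0.058) and without any 1 of the 4 columns. The 5 flow-through rises of the group became 3 (CDK4, CDK7 and CDK8) without the first mock, the second mock or the second siRNA column, and CDK9 was not called without the first mock or the first siRNA column. CDK6, a G1 kinase, rose in total RNA from 7.01 and 6.54 to 10.1 and 9.05 (0.46, SE 0.09, limma adjusted p = 0.00284), and its flow-through rise was lost with GC centring (0.09, limma adjusted p = 0.282). CDK2 rose by 0.20 in total RNA (limma adjusted p = 0.033), and CDK4 by 0.24 in flow-through RNA (limma adjusted p = 0.00143) with total RNA at 184 and 200 in mock against 195 and 190 with siRNA. CDK10, whose half-life was longer, had total RNA of 11.8 and 11.4 in mock against 9.89 and 11 with siRNA, which did not pass (-0.12, limma adjusted p = 0.358). Of the CDC25 and CDC14 phosphatases, CDC14B fell in total RNA from 7.58 and 8.08 to 4.99 and 5.04 (-0.53, SE 0.09, limma adjusted p = 0.000792), while CDC25B and CDC14A passed in no fraction. With GC centring CDC25B passed in total RNA (0.21, limma adjusted p = 0.0211), and CDC14B passed as a fall in labelled RNA too (-0.41, limma adjusted p = 0.0193).

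Calls for the replication genes differed between the fractions, and the cause was not tested. In total RNA 0 of 8 rose and 2 fell, both subunits of the replicative helicase: MCM5, from 105 and 121 to 95.9 and 90.8 (-0.25, SE 0.07, limma adjusted p = 0.0141), and MCM7, from 532 and 582 to 482 and 432 (-0.27, SE 0.06, limma adjusted p = 0.00469). In flow-through RNA 6 rose and MCM5 fell, and in labelled RNA 3 rose. MCM3, another subunit, was at 266 and 260 in mock flow-through RNA and at 345 and 347 after siRNA (0.41, SE 0.03, limma adjusted p = 0.000275), with labelled RNA of 82.0 and 69.7 against 103 and 103 (0.30, limma adjusted p = 0.0248). MCM8, which works in recombination repair, and MCM10, an initiation factor, also rose in both fractions. Total RNA of MCM3, MCM8 and MCM10 changed by 0.04, 0.15 and 0.06 and did not pass. With GC centring, 2 of the 8 rose in flow-through RNA in place of 6, since the calls for CDC6, MCM4, MCM9 and MCM10 were lost. Without the first mock, the second mock or the first siRNA column 3 of them rose (MCM3, MCM8 and MCM10). None of the 3 labelled rises held in every fit that left out a column. MCM3 (0.23) and MCM10 (0.28) did not pass without the second mock column, and MCM8 (0.28) did not without the first. Without the second siRNA column MCM8 (0.31) and MCM10 (0.29) did not pass. The fall of 2 genes in total RNA became 1 without the second mock or the first siRNA column and 0 without the second siRNA column.

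Of the 6 mitotic kinase and checkpoint genes, 4 rose in flow-through, 3 in labelled and 2 in total RNA, and none of the 6 fell in these fractions. AURKB, the kinase of the chromosomal passenger complex, was at 88.4 and 87.2 in mock flow-through RNA and at 120 and 124 after siRNA (0.49, SE 0.04, limma adjusted p = 0.000287). BUB1B, which encodes the checkpoint protein BUBR1, rose in labelled RNA from 8.6 and 7.18 to 12.2 and 13.8 (0.52, SE 0.09, limma adjusted p = 0.00311), and total RNA of this gene did not pass (0.21, limma adjusted p = 0.0622). BUB1, the kinase it resembles, rose in all 3 fractions, by 0.23 (total), 0.31 (labelled) and 0.42 (flow-through), and its total RNA did not pass with GC centring (0.17, limma adjusted p = 0.102). AURKA rose in flow-through RNA (0.28, limma adjusted p = 0.00543), and its total and labelled changes of 0.18 and 0.16 did not pass. PLK1 and BUB3 passed in no fraction. PLK1 total RNA was 75.2 and 84.6 in mock against 84.2 and 90.3 with siRNA, and with GC centring PLK1 passed there as a rise (0.19, limma adjusted p = 0.0372). The 2 rises of the group in total RNA were 0 with no centring, and 4, 1, 0 and 0 without the first mock, second mock, first siRNA and second siRNA column. The 3 labelled rises became 2, 1, 2 and 1 in the same order.

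All 5 mitotic kinesins past the minimum rose in flow-through RNA, by 0.13 to 0.62. KIF20B, which acts in cytokinesis, went from 13.3 and 13.7 to 19.1 and 23.2 (0.62, SE 0.09, limma adjusted p = 0.00219). KIF4A, a chromosome-bound motor, rose in labelled RNA from 10.6 and 9 to 16.4 and 16.9 (0.57, SE 0.08, limma adjusted p = 0.00128), the largest labelled rise of the 86. KIF11, the motor that pushes spindle poles apart, rose in total RNA from 31.3 and 29.1 to 39.8 and 39.5 (0.40, SE 0.08, limma adjusted p = 0.00174). KIF2A (0.13, limma adjusted p = 0.0484) was the smallest of the 5, and its call was lost without any 1 of the 4 columns, with no centring and with GC centring. KIF11 and KIF20B passed as labelled rises with GC centring (0.21 and 0.29, limma adjusted p = 0.0395 and 0.0249). Of the transport kinesins, KIF5B, the heavy chain of conventional kinesin, rose in flow-through RNA from 62.8 and 63.7 to 88.9 and 89.0 (0.50, SE 0.04, limma adjusted p = 0.000323) and in labelled RNA by 0.35. KIF3B total RNA fell from 11 and 11.5 to 5.75 and 6.14, 1.89-fold lower (-0.80, SE 0.09, limma adjusted p = 2.23e-05), with labelled RNA of 7.76 and 6.82 in mock against 8.30 and 8.43 with siRNA (0.04, limma adjusted p = 0.757).

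Of the condensin and SMC genes, 8 of 10 rose in flow-through RNA and NCAPD3 fell. These counts were the same with no centring, quantile normalisation and GC centring, with NCAPH2 called in place of NCAPG2 in the last. Without the first or the second mock column 6 rose, with NCAPG2 and SMC5 lost, and without either siRNA column 7 did. SMC3 flow-through RNA was 62.3 and 61.0 in mock against 108 and 106 with siRNA (0.80, SE 0.04, limma adjusted p = 9.67e-05), 1.73-fold higher and the largest rise of the 86. SMC1A was at 140 and 151 in mock against 228 and 237 with siRNA (0.69, SE 0.05, limma adjusted p = 0.000289), and SMC6, of the SMC5/6 complex, at 14.4 and 14.8 and then 24.1 and 22.6 (0.66, SE 0.06, limma adjusted p = 0.000508). Labelled RNA rose for the same 3 genes and NCAPD2, a condensin I subunit, by 0.33 to 0.55. Total RNA moved less: SMC3 rose from 48.9 and 46.6 to 64.8 and 58.3 (0.38, SE 0.08, limma adjusted p = 0.00235), NCAPD2 by 0.34, SMC6 by 0.33 and SMC2 by 0.22, and SMC1A did not pass (0.17, limma adjusted p = 0.0533). With GC centring SMC1A passed (0.17, limma adjusted p = 0.0475) and SMC2 did not, while SMC2 passed as a labelled rise. The 4 rises in total RNA became 6, 2, 2 and 3 without the first mock, second mock, first siRNA and second siRNA column. NCAPD3 total RNA fell from 34.3 in both mock columns to 25.5 and 24.7 (-0.42, SE 0.07, limma adjusted p = 0.000816), with labelled RNA of 9.09 and 8.59 against 9.60 and 9.74, which did not pass.

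**Figure D4:**
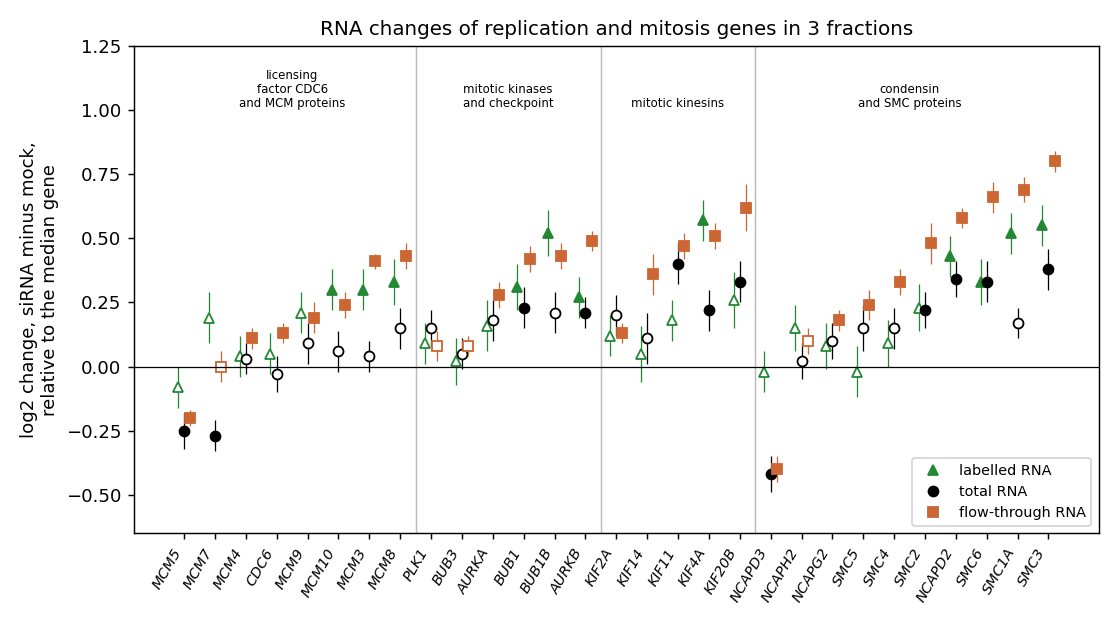
Log2 changes (siRNA minus mock, relative to the median gene) in labelled (green triangles), total (black circles) and flow-through RNA (orange squares) for 4 role groups, with the standard error of the limma fit; filled symbols passed the test. Flow-through changes lie above total changes for most genes and reach 0.80 for SMC3, while NCAPD3 and MCM5 lie below 0 in total and flow-through RNA.

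In the centromere group, in total RNA 1 of 11 rose, CENPQ (24.1 and 20.5 to 27.4 and 27.2, 0.30, limma adjusted p = 0.0256), and 3 fell, CENPF, CENPI and CENPV. The CENPQ call was lost with GC centring (0.21, limma adjusted p = 0.0514) and in 3 of the 4 fits that left out a column. CENPF total RNA was 26.9 and 32.8 in mock against 15.6 and 20.7 with siRNA, 1.65-fold lower (-0.68, SE 0.11, limma adjusted p = 0.00068). Its labelled RNA was 17.1 and 18.8 in mock against 22.1 and 34.0 with siRNA, so the labelled columns were higher while the total columns were lower, and the labelled change did not pass (0.45, SE 0.15, limma adjusted p = 0.051). It lay between 0.16 and 0.74 without 1 of the columns, passed in 3 of those 4 fits, and passed with GC centring. CENPA, CENPB, CENPH, CENPM, CENPN, CENPP and CENPT passed in no fraction. With GC centring CENPB passed as a rise in labelled (0.23, limma adjusted p = 0.0409) and flow-through RNA (0.24, limma adjusted p = 0.0274), CENPT rose in the same fractions, CENPM rose in labelled RNA and CENPI fell in flow-through RNA. Of the anaphase-promoting complex, which marks mitotic cyclins for destruction, CDC27 rose in total RNA (0.29, limma adjusted p = 0.0142) and CDC16 fell (-0.28, limma adjusted p = 0.00897). CDK5RAP2 rose in labelled RNA from 2.45 in both mock columns to 4.17 and 4.03 (0.43, SE 0.10, limma adjusted p = 0.0125), and PLK4 passed in no fraction.

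CDK2AP1 encodes a CDK2-binding protein. Its labelled RNA was 32.9 and 32.2 in mock against 21.0 and 23.0 with siRNA (-0.68, SE 0.08, limma adjusted p = 0.0005), the largest labelled fall of the 86. Flow-through RNA fell as well, from 163 and 164 to 101 and 106 (-0.64, SE 0.04, limma adjusted p = 0.000165). Total RNA, from which both were separated, was 112 and 123 in mock against 115 and 117 with siRNA (0.01, limma adjusted p = 0.945), with overlapping columns. The related gene CDK2AP2 fell in all 3 fractions, in total RNA from 15 and 18.2 to 11.6 and 10.6 (-0.52, SE 0.09, limma adjusted p = 0.000701). CDC40 rose in total RNA from 12.2 in both mock columns to 16.7 and 16.5 (0.44, SE 0.08, limma adjusted p = 0.00107), and CDK5RAP1 fell from 23.1 and 24.1 to 15.2 and 16.5 (-0.53, SE 0.08, limma adjusted p = 0.000267).

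Of the 63 genes that passed in flow-through RNA, 49 did so without each of the 4 columns in turn, as did 16 of 37 in total RNA and 8 of 24 in labelled RNA, and every one of these called genes kept its direction. The 8 labelled calls were CDK2AP1, BUB1B, KIF4A, SMC3, NCAPD2, CCNJ, CDK5RAP2 and SMC1A. The 16 in total RNA were 7 rises (CCNE1, CCNE2, SMC3, NCAPD2, CDC40, KIF11 and CDK6) and 9 falls (CCNJ, CCNC, CCND3, CENPF, KIF3B, NCAPD3, CDC14B, CDK2AP2 and CDK5RAP1). The total RNA call of CCNA2, BUB1 or CCNB2 did not hold in that way, nor did those of MCM5 and MCM7. Median total RNA change of the 86 was 0.12, 0.07, 0.09 and 0.08 without the first mock, second mock, first siRNA and second siRNA column. Their median labelled change was 0.10, 0.08, 0.10 and 0.07 in the same order. More total RNA rises passed without the first mock column and fewer without any other, among the 86 and among all genes. Without the second mock column the share of the 86 that rose in total RNA was near that of all genes. Labelled rises were fewer in each of these fits, among the 86 and among all genes.

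The 9 genes under the minimum entered no test. CENPE, the kinetochore motor that carries chromosomes to the spindle equator, had total RNA of 4.96 and 4.28 in mock against 5.11 and 5.51 with siRNA, and half-lives of 1285 and 1370 min and then 1551 and 1725 min. KIF18A, a motor that dampens chromosome movements, had half-lives of 366 and 420 min and then 466 and 548 min. The others were CENPC1, CENPJ, KIF5A, KIF13A, KIF24, KIF26A and KIF27, with mean total RNA between 1.68 and 4.71 in mock.

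Other genes of the cycle, from 10 lists of known S phase, G2 and M phase, replication, kinetochore, cohesin, spindle, CDK inhibitor and E2F genes, were read from the same fits. Of 143 tested, the half-life rose for 6 and fell for 7 (1.88% and 4.27% of all genes did so). Total RNA rose for 32 and fell for 17 (12.9% and 14.3% of all genes), labelled RNA rose for 25 and fell for 3 (9.88% and 11.5%), and flow-through RNA rose for 73 and fell for 20 (31.7% and 26.8%). The medians were 0.03, 0.08, 0.11 and 0.18. The half-life rose for E2F5 (399 and 432 min to 859 and 894 min, 0.88, limma adjusted p = 0.0168) and E2F3 (0.41, limma adjusted p = 0.0457), transcription factors of the E2F family that controls S phase genes. It also rose for CDKN1B, the inhibitor of cyclin E-CDK2 (98 and 95 min to 136 and 211 min, 0.62, limma adjusted p = 0.0332), and for GINS1, RAD51AP1 and RRM2. It fell for GAS2L3 (-0.75, limma adjusted p = 0.0287), CDKN2C, an inhibitor of CDK4 and CDK6 (187 and 209 min to 105 and 181 min, -0.71, limma adjusted p = 0.0298), TMPO, CHEK1, RBL2, ESCO2 and ANAPC11. The counts of single lists are read against the same shares of all genes. Of 13 spindle and cytokinesis genes, 12 rose and 1 fell in flow-through RNA, and 7 rose and 0 fell in labelled RNA. Of 26 tested G2 and M phase genes 19 rose and 2 fell in flow-through RNA, and of 32 S phase genes 22 rose and 1 fell. Among 8 anaphase-promoting complex genes 2 rose and 4 fell there, and among 14 CDK inhibitors and kinases 3 rose and 5 fell. The other lists, in rises and falls, gave 14 and 1 of 29 (replication fork) and 8 and 1 of 15 (kinetochore and checkpoint). They also gave 4 and 1 of 8 (cohesin), 5 and 2 of 17 (E2F, RB and mitotic factors) and 2 and 2 of 5 (origin licensing). With no centring, 70 of the 143 rose in labelled RNA and 17 in total RNA, where 1641 and 451 of all 6064 genes did. Leaving out any 1 column gave fewer half-life calls in each direction, among the 143 and among all genes. Total RNA rises were more without the first mock column and fewer without any other, in both sets. Labelled rises were fewer among all genes in each fit, and among the 143 in all but the fit without the first siRNA column.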

How the data were processed

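Per the labels' protocols, poly(A)+ TruSeq libraries were made from total, flow-through and labelled RNA, and the submitters' processing notes name TopHat2 2.06 and the hg18 build. The expression columns hold a signal per gene normalised by the authors, with no unit in the header, and the program behind it is not given in the sources at hand. The other unit, the half-life, was computed by the authors and deposited without a unit. It was read as minutes from the size of half-lives recomputed from the 3 fractions over 60 min. Recomputed column medians were 624 (mock replicate 1), 678 (mock replicate 2), 558 (siRNA replicate 1) and 508 (siRNA replicate 2). Deposited medians were 742, 810, 764 and 1030 in the same order. Over genes the Pearson r of recomputed with deposited log2 values was 0.964 to 0.98. That r is the same in any unit, so it cannot decide the unit.

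Cell cycle genes, role groups and lists were chosen with earlier results of these data known. The fits used the 6064 of 7682 genes whose mean total RNA reached 5 in mock and in siRNA. log2(value + 1) or log2 half-life was centred on the median gene of each column and compared with limma 3.58.1 (R 4.3.3), 2 siRNA against 2 mock columns, with a mean-variance trend and Benjamini-Hochberg adjustment at 0.05. Folds of RNA level are ratios of uncentred group means. The added 1 understates log2 changes of low genes. The fit was tested on simulated data. Depth is unknown, so no counting interval is given.

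Genes named are those past limma in half-life, the largest changes and the extreme mock half-lives of each role, the largest level changes, and textbook anchors; some others were chosen after their values were seen. UTRs and GC content came from GENCODE release 29 on GRCh38, matched by symbol for all 95 genes and for 98.8% of tested genes; these are not the authors' hg18 models. Alternatives were other expression minimums, no centring, leaving out each column, a replicate block, no trend, recomputed half-lives, pseudocounts 0 and 5 and quantile normalisation; centring within 10 GC bins was chosen after seeing the data.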

Additional observations from a re-analysis of the deposited data

How the results depend on the processing

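Counts are given as rises and falls. For half-life (3 and 8), no centring gave 0 and 0, the replicate block 1 and 4, no minimum 5 falls and a minimum of 20 2 falls. Recomputed half-lives gave 4 and 6, with CENPQ gained and CCNG2 (-0.45, limma adjusted p = 0.0582) and NCAPD3 (-0.39, limma adjusted p = 0.0581) lost. Over all 6064 genes, no centring gave 2 and 5, the block 21 and 118 and recomputed half-lives 192 and 288. No minimum gave 80 and 221 of 7682 genes, and a minimum of 20 gave 63 and 94 of 2603. With a minimum of 20 the share of half-life falls was near that of all genes. For total RNA (21 and 16), no centring gave 11 rises and a minimum of 20 7 falls. Over all genes these fits gave 451 and 686 of 6064, and 353 and 310 of 2603. For labelled RNA (19 and 5), a minimum of 20 gave 11 and 2 and no centring 40 and 3. All genes then gave 252 and 320 of 2603, and 1641 and 333 of 6064. For flow-through RNA (44 and 19), a minimum of 20 gave 10 falls, where all genes gave 923 and 744 of 2603. A minimum of 20 left 53 of the 86 genes in the fit. Median changes moved in half-life (0.04) to 0.07 with a minimum of 20, 0.24 with no centring and 0.01 with centring within 10 GC bins, in total RNA (0.09) to 0.12 with a minimum of 20, in labelled RNA (0.10) to 0.14 with no minimum and 0.24 with no centring, and in flow-through RNA (0.13) to 0.16 with no minimum, 0.12 with no centring and 0.12 with a pseudocount of 5. Flow-through CENPB, which was not called, went from -0.13 to 0.24 with centring within 10 GC bins. The median mock half-life (792 min) was 634 min when recomputed. The cause of these shifts was not tested, and a higher minimum also left fewer genes in the fit.

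Leaving out 1 column at a time gave, for the cell cycle genes, 0 to 3 rises and 1 to 5 falls in half-life (median -0.01 to 0.03), 8 to 28 and 11 to 16 in total RNA (0.07 to 0.12), 11 to 17 and 4 to 5 in labelled RNA (0.07 to 0.10), and for flow-through RNA 34 to 38 with 17 to 21 (0.14 to 0.16). With 1 column left in an arm, its spread is assumed to be that of the other arm.

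For the 143 other genes, half-life counts (6 and 7) were 2 and 1 with no minimum, 0 and 0 with no centring, 1 and 2 with the replicate block, and 2 falls with a minimum of 20. Total RNA (32 and 17) gave 17 and 7 with a minimum of 20 and 17 rises with no centring. Labelled RNA (25 and 3) gave 15 rises with a minimum of 20 and 70 and 1 with no centring. Flow-through RNA (73 and 20) gave 47 and 11 with a minimum of 20. Without 1 column the ranges were 0 to 2 and 0 to 3 in half-life, 15 to 36 and 11 to 15 (total), 16 to 27 and 2 to 5 (labelled), and 55 to 69 with 16 to 20 (flow-through).

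Nothing says whether the replicate numbers pair the samples, and the values do not settle it. Deviations of same-numbered columns correlated over 6064 genes at -0.0691 for half-life, 0.0457 for total, -0.0367 for labelled and 0.111 for flow-through RNA. With the replicate block, total RNA gave 27 and 18, labelled RNA 21 and 6, and flow-through RNA 44 and 20. Over all genes the block gave 1124 and 1123 in total RNA, against 783 and 868 without it. It gave 732 and 823 against 599 and 700 in labelled RNA, and 2003 and 1701 against 1925 and 1626 in flow-through RNA.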
